A study of Mus musculus with 9 samples.

Results

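Lungs of obese mice given intratracheal lipopolysaccharide (LPS) were compared with lungs of obese mice given saline, through 50 array probes that carry a transcript accession, of 60691 probes on the array. A gene was named only where its accession matched a RefSeq transcript, which gave 46 named genes. Each of these probes is printed 10 times on the array. The series asked how long non-coding RNAs relate to lung injury in obesity. Lung RNA of 9 mice was hybridised to Agilent arrays of long non-coding RNAs and mRNAs, with 1 array for each mouse. The comparison described here rests on 3 mice fed a high-fat diet that received sterile saline (HFD) and 3 mice fed the same diet that received LPS (HFD + LPS). The other 3 mice received normal diet and sterile saline (control). All were male C57BL/6J mice, 20 weeks old, after 12 weeks on their diet, in which fat gave 60% of the energy for both HFD groups. For all of them the labels also give an age of 6 weeks at the start. The labels give a body weight of 45 g for both HFD groups and of 31 g for the control group. LPS was instilled through the trachea and the lungs were taken after 24 h, and the upper and middle lobes of the right lung were used. The labels give no LPS dose for these mice, and the samples used here hold no mice on normal diet with LPS.

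LPS is the outer membrane component of Gram-negative bacteria that is sensed by Toll-like receptor 4 on macrophages and epithelial cells. Its instillation into the airways is a standard model of acute lung injury, in which NF-kB signalling drives cytokine production, neutrophils enter the alveoli and the barrier of endothelium and epithelium becomes leaky. A high-fat diet adds fatty acid load, and fatty acid oxidation genes under the nuclear receptor PPAR-alpha are known to respond to it. The 46 named genes sample several of these processes but were not selected for them.

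None of the 40 named genes that could be tested passed the threshold between HFD + LPS and HFD. The 2 lowest adjusted p-values belonged to Actb, with a difference of -2.46 (log2), and Carhsp1, with a difference of 1.21. Gsta4, Gpi1, Nup50, Tm9sf1 and Rab5a were higher on all HFD + LPS arrays than on all HFD arrays, and Kcnn2, E2f1 and Cep41 were lower on all of them. With Actb and Carhsp1 these are 10 of the 11 genes whose groups did not overlap. A probe is called detected where the scanner software marked its spots as well above background. Levels are given as log2 intensity relative to the 75th percentile of the array, so 0 is the level of a probe brighter than most. Differences are HFD + LPS minus HFD on the log2 scale, given ± SE.

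Two-sided tests with limma, fitted to all 9 arrays and adjusted by the Benjamini-Hochberg method over all 29698 probes that 3 or more of the 6 arrays detected, gave 0 of 40 named genes with an adjusted p under 0.05. Among all probes tested the figure was 74, or 0.249%, of which 54 were higher (0.182%) and 20 lower (0.0673%) after LPS. Of these, 6 of the higher and 9 of the lower were detected in 1 of the groups only and so were tested only through the group in which they are bright. At an unadjusted p under 0.05 the same test gave 9 of the 40 genes (22.5%), against 18% of all probes (7.58% higher and 10.4% lower). The methods' t-test gave 10 of the 40 genes before adjustment and 0 after it, against 3842 and 1 of the 29698 probes. Groups did not overlap for 11 of 40 genes (27.5%), with 6 higher and 5 lower, against 22.9% of all probes (10.2% higher and 12.7% lower). These counts of genes include E2f1 and Kcnn2, which were tested only because the HFD arrays detected them. These shares of the named genes lay near those of all probes, and the counts by role given further on describe single genes and say nothing of a role. A measured difference over 1 in either direction was found for 7.82% of all probes and for 3 named genes, which were Actb, Kcnn2 and Carhsp1. Kcnn2 was detected on 0 HFD + LPS arrays, so only a fall of at least 1.33-fold is established for it. The median difference was 0.08 over the 40 genes, of which 25 were higher and 15 lower, and -0.05 over all probes, of which 54.2% were below 0. With 3 mice in each group, the number of arrays limits the precision.

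**Figure D1:**
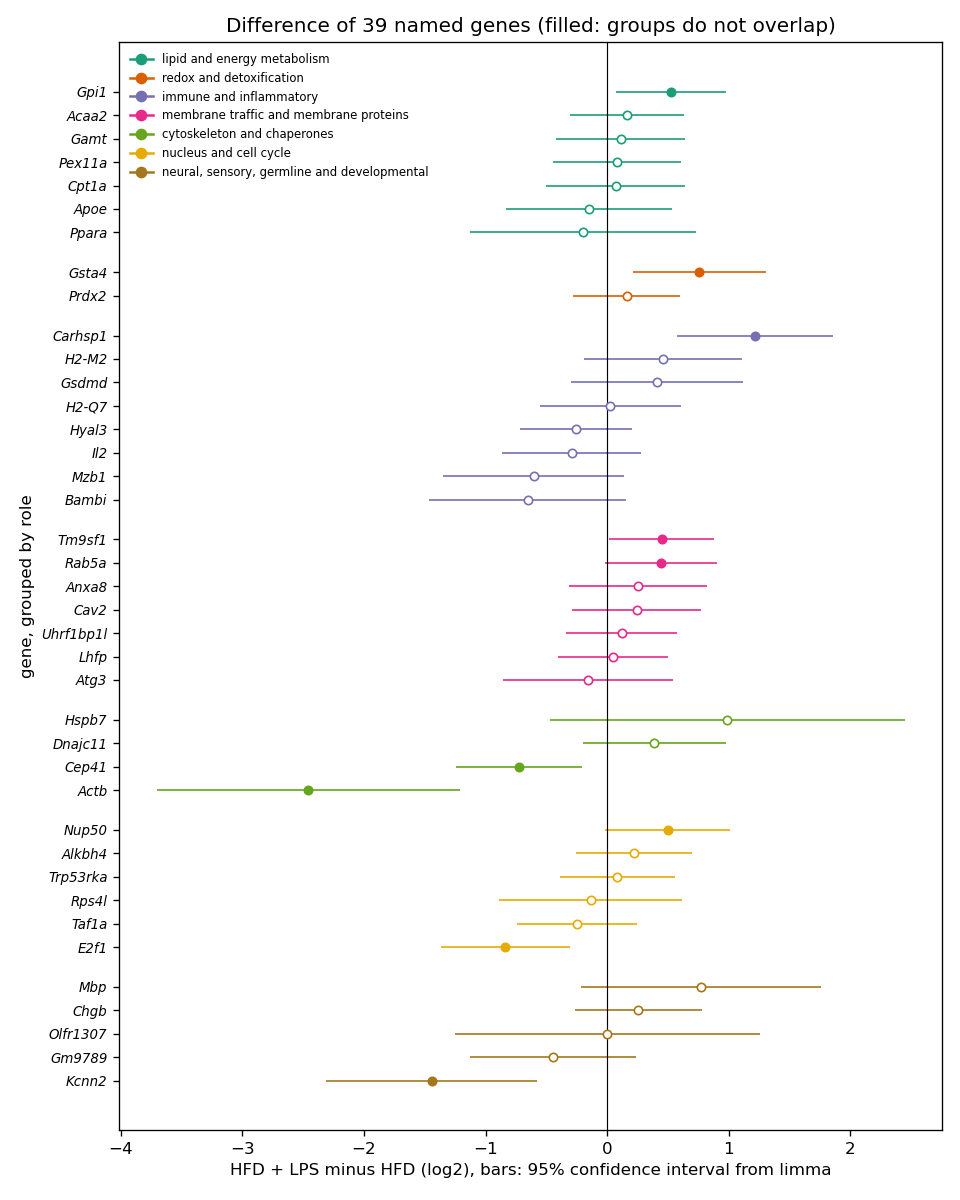
Difference between HFD + LPS and HFD (log2, x axis) for 39 of the 40 named genes tested (y axis), coloured by role, with 95% confidence intervals from limma; filled points mark 10 genes whose groups do not overlap. Actb lies farthest to the left at -2.46 and Carhsp1 farthest to the right at 1.21, and most other intervals include 0.

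The arrays differed in detection. The share of probes detected was 48.9%, 48.4% and 55.6% on the HFD arrays and 45.7%, 32.6% and 53.0% on the HFD + LPS arrays, so HFD + LPS replicate 2 lay below all others. The same array had the brightest negative control spots, with a median of 7.53, where the remaining 8 arrays had 2.10 to 4.02. Exact permutation tests, two-sided, gave p = 0.4 for the share and p = 0.2 for the negative control signal, and the smallest p that 3 arrays against 3 can give is 0.1. With slides told apart by scan time, HFD + LPS replicate 3 was the only array on slide 2, and its part in the results was given by leaving it out. Of the 82 marker genes in 10 cell type lists, from alveolar macrophages and neutrophils to epithelium, 0 had a named probe, so the tissue label was not checked against markers. In whole lung, fewer cells of a type and less RNA per cell cannot be told apart.

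Among 8 named genes of immunity and inflammation, 1 was higher without overlap, 0 were lower without overlap and 7 overlapped. Carhsp1 encodes a cold-shock domain protein that binds Tnf mRNA and prolongs its life. Carhsp1 stood at 3.81, 4.41 and 4.06 on the HFD arrays and at 5.62, 5.34 and 4.96 on the HFD + LPS arrays. The lowest HFD + LPS array lay above the highest HFD array, and the control arrays, at 3.28, 4.14 and 3.61, lay in or below the HFD range. The difference of 1.21 ± 0.29 (SE) is a 2.32-fold higher intensity, with a 95% interval of 1.49 to 3.62, and did not pass after adjustment (limma, adjusted p = 0.0893). Tested among the 18371 probes detected on all 6 arrays, the same difference had an adjusted p of 0.0486. Leaving out any one array gave 1.06 to 1.39.

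Gsdmd, whose product forms the membrane pores of pyroptosis, stood at 1.58, 1.82 and 1.83 on the HFD arrays and at 2.08, 2.89 and 1.50 after LPS. The HFD + LPS arrays held both the highest and the lowest of these values, and the difference was 0.41 ± 0.32 (limma, adjusted p = 0.528). Leaving out HFD + LPS replicate 2 gave 0.04, and leaving out HFD + LPS replicate 3 gave 0.74. Bambi, a decoy receptor of the TGF-beta family, stood at 2.25, 2.74 and 2.79 against 2.63, 1.28 and 1.91. Its groups overlapped through HFD + LPS replicate 1, and the difference was -0.65 ± 0.36 (limma, adjusted p = 0.374). Leaving out HFD + LPS replicate 1 gave -0.999, leaving out HFD + LPS replicate 2 gave -0.33, and normexp background correction gave -0.43. Mzb1, an endoplasmic reticulum chaperone of B cells and plasma cells, stood at 1.59, 2.39 and 2.45 against 1.25, 1.53 and 1.84. Its difference was -0.60 ± 0.33 (limma, adjusted p = 0.373), while its control arrays were the highest of the 3 groups at 3.48, 2.61 and 2.52. The MHC class I genes H2-M2 and H2-Q7 differed by 0.46 and 0.02, and H2-Q7 shares sequence with near-identical neighbours, so its probe may read more than one gene. Hyal3, a hyaluronidase, and Il2, a T cell growth factor, differed by -0.26 and -0.29. Il2 was detected on 3 HFD arrays and 1 HFD + LPS array. When single arrays were left out, the difference ran from 0.22 to 0.74 for H2-M2, from -0.40 to -0.16 for Hyal3 and from -0.56 to -0.15 for Il2.

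In redox defence, 2 of 3 named genes were tested. Gsta4 encodes the glutathione transferase that conjugates 4-hydroxynonenal, a product of lipid peroxidation. Gsta4 stood at 0.88, 1.00 and 1.22 on the HFD arrays and at 2.08, 1.60 and 1.68 on the HFD + LPS arrays. The groups were apart, and the control arrays at 0.93, 1.61 and 1.34 spanned the gap between them. The difference was 0.76 ± 0.25, a 1.69-fold higher intensity with a 95% interval of 1.15 to 2.47 (limma, adjusted p = 0.161). Prdx2, a peroxiredoxin that removes hydrogen peroxide, differed by 0.16 ± 0.20, with 5.33, 5.17 and 5.25 against 5.28, 5.46 and 5.48. Duox1, the airway oxidase that makes hydrogen peroxide, was detected on 0 of the 6 arrays.

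All 7 genes of lipid and energy metabolism were tested, and 1 was higher without overlap. Gpi1, the glycolytic enzyme glucose-6-phosphate isomerase, stood at 6.67, 6.48 and 6.62 on the HFD arrays and at 7.15, 7.34 and 6.85 on the HFD + LPS arrays. Every HFD + LPS array was above every HFD array, and the control arrays at 6.79, 6.86 and 6.77 lay above the HFD arrays. Its difference was 0.52 ± 0.20 (limma, adjusted p = 0.222), and with normexp background correction it was 0.61 with an adjusted p of 0.0385. Cpt1a, which commits long-chain fatty acids to mitochondrial oxidation, stood at 3.51, 3.85 and 3.66 against 4.08, 3.85 and 3.29. The HFD + LPS arrays lay on both sides of the HFD arrays, with a difference of 0.07 ± 0.26 and a 95% interval of -0.50 to 0.64 (limma, adjusted p = 0.913). All 6 of these arrays were above the control arrays at 2.23, 2.73 and 2.63.

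The other fatty acid genes showed small differences. Acaa2, the thiolase of the last step of beta-oxidation, differed by 0.16 and Pex11a, a peroxisome division protein induced through PPAR-alpha, by 0.08. Ppara itself stood at -1.24, -0.68 and -0.19 against -0.10, -1.67 and -0.96, so the HFD + LPS arrays held the highest and the lowest value, and it differed by -0.20 ± 0.42. Apoe, which carries lipids in lipoproteins and is made by macrophages, stood at 6.06, 6.35 and 6.31 against 6.54, 6.29 and 5.43. Its value was lowest on HFD + LPS replicate 3, and the difference was -0.15 ± 0.31, which became 0.18 without that array. Gamt, the enzyme of the last step of creatine synthesis, differed by 0.11.

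Of 7 genes of membrane traffic and membrane proteins, 2 were higher without overlap, where 10.2% of all probes were. Rab5a encodes the small GTPase of early endosomes. Rab5a stood at 4.40, 4.63 and 4.75 on the HFD arrays and at 4.89, 5.15 and 5.06 on the HFD + LPS arrays. The groups were apart by less than the range of the HFD arrays, with a difference of 0.44 ± 0.21 (limma, adjusted p = 0.296). Tm9sf1, a membrane protein with many transmembrane segments, stood at 3.89, 4.01 and 4.0 against 4.27, 4.51 and 4.46. The difference was 0.45 ± 0.19 (limma, adjusted p = 0.264), and the control arrays at 3.83, 4.13 and 3.92 lay around the HFD values. Cav2, which forms caveolae together with caveolin-1, stood at 4.80, 4.95 and 5.0 against 5.26, 4.85 and 5.36. The groups overlapped, with a difference of 0.24 ± 0.24. Anxa8, a calcium-dependent membrane binding annexin, differed by 0.25 ± 0.26 and overlapped too. With single arrays left out, Cav2 ran from 0.14 to 0.39 and Anxa8 from 0.04 to 0.42, and with brightness as a covariate Anxa8 was -0.023. Uhrf1bp1l and Lhfp differed by 0.12 and 0.05, and Atg3, the enzyme that attaches LC3 to autophagic membranes, by -0.16.

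Of 4 genes of the cytoskeleton and chaperones, 2 were lower without overlap, where 12.7% of all probes were. Actb encodes cytoplasmic beta-actin, which is often used as a reference gene. Actb stood at 1.69, -0.76 and 0.67 on the HFD arrays and at -1.23, -2.31 and -2.23 on the HFD + LPS arrays. The groups did not overlap, but the HFD arrays were spread over a wide range (0.53 ± 1.23, SD, n = 3), and the probe was detected on 2 of 3 HFD + LPS arrays. The control arrays at 1.09, 0.10 and 0.82 lay within the HFD range. Its difference of -2.46 ± 0.56 is a 5.50-fold lower intensity (limma, adjusted p = 0.0856), and it moved from -3.10 to -1.88 when single arrays were left out. Without HFD replicate 2, the lowest HFD array, the difference was -3.10 and passed (adjusted p = 0.0477). With the replicate number as a block its adjusted p was 0.0494, and with array brightness as a covariate the difference was -1.68. With normexp background correction it was -1.04 (adjusted p = 0.123). Beta-actin has near-identical gene copies. The probe was also dim, with a mean level of 0.53 on the HFD arrays against 6.59 for Gpi1 and 6.24 for Apoe. What this probe reads is therefore uncertain and was not tested.

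Cep41, a protein of centrioles and cilia, stood at 1.16, 0.62 and 0.80 on the HFD arrays and at 0.01, -0.08 and 0.47 on the HFD + LPS arrays. The groups were apart, and the control arrays at 1.02, 0.93 and 0.78 lay within the HFD range. The difference was -0.73 ± 0.23, a 1.65-fold lower intensity (limma, adjusted p = 0.159), and with normexp background correction it was -0.38. Hspb7, a small heat shock protein of heart and muscle, had the widest interval of these genes, from -0.47 to 2.45 around a difference of 0.99. It was detected on 1 HFD array and 2 HFD + LPS arrays. Its difference was 0.38 without HFD replicate 2, 0.29 with array weights and 0.10 with normexp background correction. Dnajc11, a mitochondrial co-chaperone, differed by 0.39 ± 0.26, which ran from 0.15 without HFD + LPS replicate 3 to 0.53 without HFD replicate 2, and was 0.015 with brightness as a covariate.

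**Figure D2:**
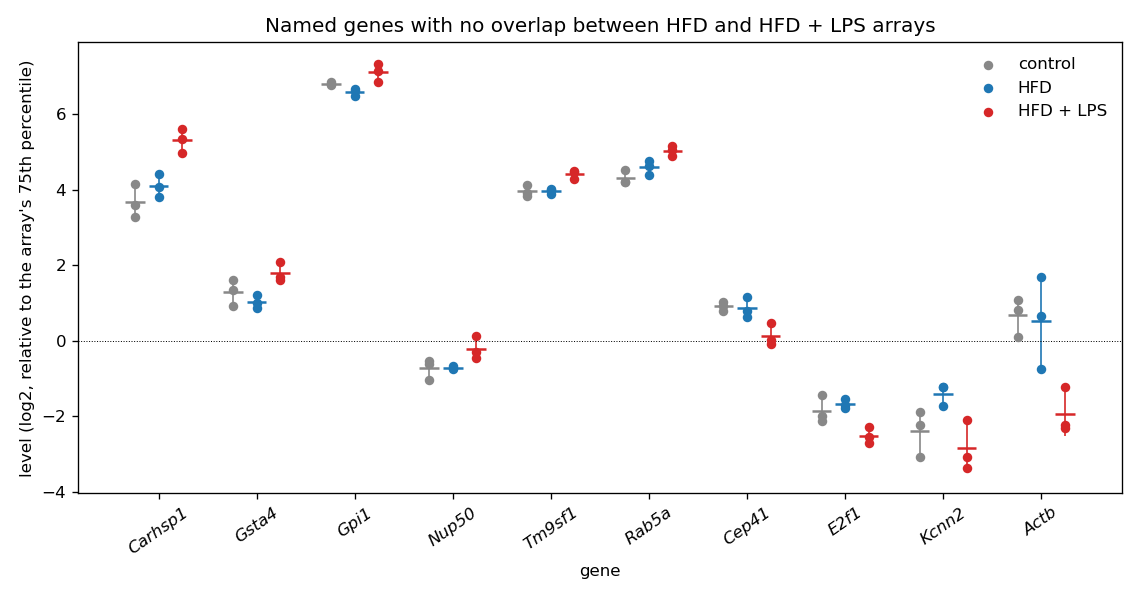
Level on each array (points; log2 relative to the array's 75th percentile, y axis) of 10 tested genes whose HFD and HFD + LPS arrays do not overlap (x axis), with control arrays beside them; horizontal lines are group means and vertical lines are ± SD, n = 3. The HFD + LPS arrays of Carhsp1 lie at 4.96 and above and its HFD arrays at 4.41 and below, and the HFD arrays of Actb spread from -0.76 to 1.69.

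Of 6 genes that act in the nucleus and the cell cycle, 1 was higher and 1 lower without overlap. Nup50, a nuclear pore component, stood at -0.74, -0.73 and -0.67 on the HFD arrays and at -0.46, -0.31 and 0.12 on the HFD + LPS arrays. The HFD arrays were close together, and the difference was 0.50 ± 0.23 (limma, adjusted p = 0.294), which was 0.33 without HFD + LPS replicate 3 and 0.23 with normexp background correction. E2f1, a transcription factor of entry into S phase, stood at -1.55, -1.77 and -1.70 against -2.28, -2.54 and -2.72. It was detected on 3 HFD arrays, 0 HFD + LPS arrays and 1 control array. As the probe was not well above background in the LPS group, the intensity can only be given as at least 1.09-fold lower. It was tested only because the HFD arrays detected it, so its measured difference of -0.84 ± 0.24 (limma, adjusted p = 0.126) is a description. With normexp background correction the measured difference was -0.27. For probes of this kind the bound sets the mean of the bright group against the lowest signal called detected on each dim array, or the signal of the probe where that is higher. Alkbh4, Trp53rka, Rps4l and Taf1a overlapped, with differences from -0.25 to 0.22, and Rps4l is annotated as a transcribed pseudogene, so its probe may also read its parent gene.

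The remaining 11 genes are known for nerve, sensory, germline or developmental roles, and 6 of them were tested. Kcnn2, a small-conductance calcium-activated potassium channel, stood at -1.73, -1.23 and -1.22 on the HFD arrays and at -2.10, -3.06 and -3.35 on the HFD + LPS arrays. It was detected on 3 HFD arrays, 0 HFD + LPS arrays and 0 control arrays. Set against the lowest detected signal on the HFD + LPS arrays, as for E2f1, its intensity was at least 1.33-fold lower. Kcnn2 too was tested only because the HFD arrays detected it, so its measured difference of -1.44 ± 0.39 (limma, adjusted p = 0.115) is a description. That difference was -1.81 without HFD + LPS replicate 1 (adjusted p = 0.0465) and -0.48 with normexp background correction. Mbp, the myelin basic protein gene, differed by 0.77 ± 0.44 and Chgb, a granule protein of neuroendocrine cells, by 0.25 ± 0.23, both with overlap. The Mbp difference was 0.30 without HFD replicate 1 and 0.06 with normexp background correction, and the Chgb difference ran from 0.14 to 0.41 with single arrays left out. Gm9789 and Olfr1307 differed by -0.45 and 0.00. Tyr, Spats1 and Gabrg1 were detected on 0 of the 6 arrays, and Olfr166 and Lhx1 on 1 HFD + LPS array each. Of the 4 probes with an accession but without a RefSeq symbol, 2 were tested, and both were lower without overlap, where 12.7% of all probes were. Their differences were -0.65 and -0.52 (limma, adjusted p = 0.275 and 0.316). The first difference was -0.34 without HFD + LPS replicate 2 and -0.23 with normexp background correction. The other 2 probes were detected on 0 of the 6 arrays.

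The genes that differed most in each direction are shown with their promoters, to give the sequence context of the 2 extremes that were detected on all 6 arrays and had an entry in the RefSeq promoter table. They are Carhsp1 and Cep41. Each promoter runs from 250 bases before the start of the gene to 50 after it, on GRCm38.p6, 5′ to 3′ on the strand of the gene, and capitals mark the GC box GGGCGG or its reverse complement. The Carhsp1 promoter is chr16:8672104-8672403 on the minus strand and the Cep41 promoter is chr6:30693700-30693999 on the minus strand.
Carhsp1: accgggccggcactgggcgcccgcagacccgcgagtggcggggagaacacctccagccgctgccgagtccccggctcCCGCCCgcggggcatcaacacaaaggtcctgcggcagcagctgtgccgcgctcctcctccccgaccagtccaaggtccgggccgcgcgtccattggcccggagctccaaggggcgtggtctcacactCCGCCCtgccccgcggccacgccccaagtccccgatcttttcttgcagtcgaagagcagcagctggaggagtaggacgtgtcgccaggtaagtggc
Cep41: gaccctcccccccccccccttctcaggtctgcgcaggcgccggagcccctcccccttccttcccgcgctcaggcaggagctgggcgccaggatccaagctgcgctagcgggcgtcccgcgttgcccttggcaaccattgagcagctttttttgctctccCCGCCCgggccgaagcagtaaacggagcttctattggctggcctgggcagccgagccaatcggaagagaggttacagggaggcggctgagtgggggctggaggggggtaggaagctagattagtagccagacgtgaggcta
The Carhsp1 promoter holds 31 CG dinucleotides and has 71.0% G and C, and the Cep41 promoter holds 19 and has 66.0%, against a median of 7 CG dinucleotides over the 32851 promoters of the table. On both strands, GGGCGG was found 2 times in Carhsp1 and 1 time in Cep41, and 35.7% of all promoters hold it. CCAAT was found 1 time in Carhsp1 and 2 times in Cep41 (37.4% of all promoters). The TATA box TATAAA, held by 13.6% of all promoters, was found in neither window. The AP-1 site, spelled TGACTCA and held by 5.2%, and the NF-kB consensus, held by 4.51%, were found in neither as well. No CCAAT match shared bases with a GC box in either window. These matches describe the letters of the windows.

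Pathway lists were covered thinly. Of 169 genes in 10 lists of cytokines, LPS and NF-kB signalling, acute phase, interferon response, lipid metabolism, TGF-beta signalling, caveolae, annexins, cytoskeleton and glycolysis, 9 had a named probe and 0 of those passed in the same limma fit. They were Carhsp1, Acaa2, Apoe, Cpt1a, Ppara, Bambi, Cav2, Anxa8 and Actb, with unadjusted p under 0.05 for Carhsp1 and Actb. Over all probes tested in this fit, 0.249% passed and 18% had an unadjusted p under 0.05. The lists of cytokines, acute phase, interferon response and glycolysis had 0 named probes, as they did not include Il2 or Gpi1, which are described above with their roles.

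The spread between mice was compared between groups for the 40 tested genes. The SD over HFD + LPS arrays exceeded that over HFD arrays for 30 of 40 genes, with a median SD of 0.30 against 0.17. It did so for 65.3% of all probes tested, with medians of 0.38 against 0.26. The HFD + LPS group holds replicate 2, with 32.6% of probes detected, and replicate 3, the only array on slide 2, and their part in the spread was not tested. The median SD between the spots of one probe on one array was 0.17. The SD of Olfr1307 went from 0.42 to 1.39, and that of Mbp, one of the genes with a smaller SD after LPS, from 0.82 to 0.22. This is a description, and the difference in spread was not tested.

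The same genes were set beside the control group, in comparisons that share arrays and are therefore not independent. Of 36 named genes tested between HFD + LPS and control, 3 (8.33%) had an adjusted p under 0.05, against 4.01% of all probes. Actb fell by 2.60 against control (limma, adjusted p = 0.0396), and HFD minus control was -0.14. Carhsp1 rose by 1.63 against control (limma, adjusted p = 0.0288), and HFD minus control was 0.42. Cpt1a rose by 1.21 against control (limma, adjusted p = 0.0380), and HFD minus control was 1.14 (adjusted p = 0.864). Mzb1 was lower than control by a difference of -1.33 (limma, adjusted p = 0.0526).

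The probes that carry the manufacturer's identifier only held all 74 calls. The identifier ASMM10AP1B104825097V4 rose from -0.54, -0.93 and -1.32 on the HFD arrays to 2.70, 7.23 and 6.46 on the HFD + LPS arrays, a difference of 6.39 ± 0.98 (limma, adjusted p = 0.0380). HFD + LPS replicate 1 lay far below the other two. The identifier ASMM10AP1B100197292V4 was detected on no HFD or control array and stood at -1.49, 0.27 and 0.60 after LPS, which is at least 4.30-fold higher (limma, adjusted p = 0.0188). The identifier ASMM10LNC1A104139403V4 stood at 1.73, -0.61 and -0.33 on the HFD arrays and was detected on 0 HFD + LPS arrays, which is at least 4.19-fold lower (limma, adjusted p = 0.0351). The identifier ASMM10AP1B100149430V4 stood at 0.43, -1.14 and -0.97 and was lost in the same way, at least 2.37-fold lower (limma, adjusted p = 0.0314). Each of these last 3 probes was tested only because the group in which it is bright detected it, so its bound and p describe the probe and support nothing further. Over the 54 probes that rose, array medians were -0.67, -0.38 and -0.12 in HFD and 2.04, 2.27 and 1.79 in HFD + LPS, and over the 20 that fell they were 0.41, -0.43 and -0.19 against -1.73, -1.76 and -2.36. These medians describe how the called probes were chosen and are no test.

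**Figure D3:**
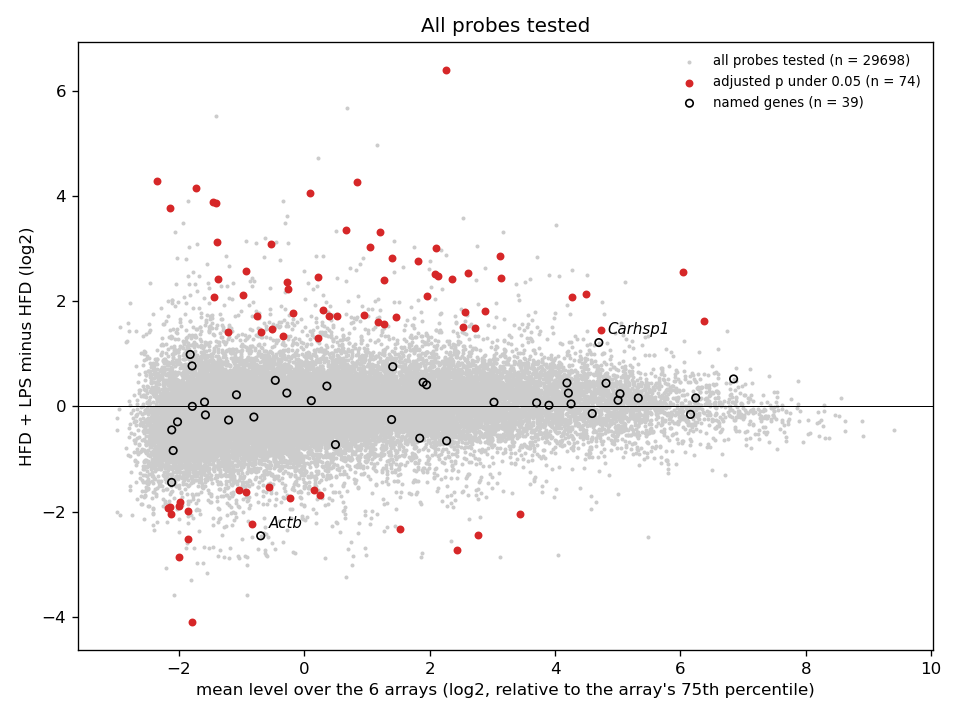
Difference between HFD + LPS and HFD (log2, y axis) against the mean level over the 6 arrays (log2 relative to the array's 75th percentile, x axis) for the 29698 probes tested; red points are the 74 probes with an adjusted p under 0.05 and open circles 39 of the named genes. The largest rise is 6.39, and the named genes lie within the cloud of all probes, with Actb and Carhsp1 near its edges.

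Leaving out single arrays moved the number of calls. It was 11, 36 and 10 without HFD replicates 1, 2 and 3, and 478, 13 and 74 without HFD + LPS replicates 1, 2 and 3. Of the 74 without HFD + LPS replicate 3, 38 were among the 74 called with all arrays. Without control replicates 1, 2 and 3, which enter through the shared estimate of the spread, it was 35, 16 and 67. Among the named genes 1 had an adjusted p under 0.05 without HFD replicate 2 (Actb) and 1 without HFD + LPS replicate 1 (Kcnn2, which was tested only through the HFD arrays), and 0 in the other runs.

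Detection gave a second readout. Probes detected on all 3 HFD + LPS arrays and on no HFD array numbered 20 (gained, 0.033% of 60691), and those with the reverse pattern numbered 429 (lost, 0.707%). Of the probes with an accession, 0 were gained and 2 were lost, Kcnn2 and E2f1. On the control arrays, 149 of the lost probes were detected on all 3 and 48 on none, and of the gained probes 1 was detected on all 3 and 9 on none. Without HFD + LPS replicate 2, the array with the lowest share of detected probes, 169 probes were gained and 447 lost. Without HFD + LPS replicate 3, 1948 were lost, and without HFD replicate 2, 1196. Without HFD + LPS replicate 1, 94 were gained and 676 lost, and without HFD replicate 1, 660 were lost. Without HFD replicate 3, 60 were gained.

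**Figure D4:**
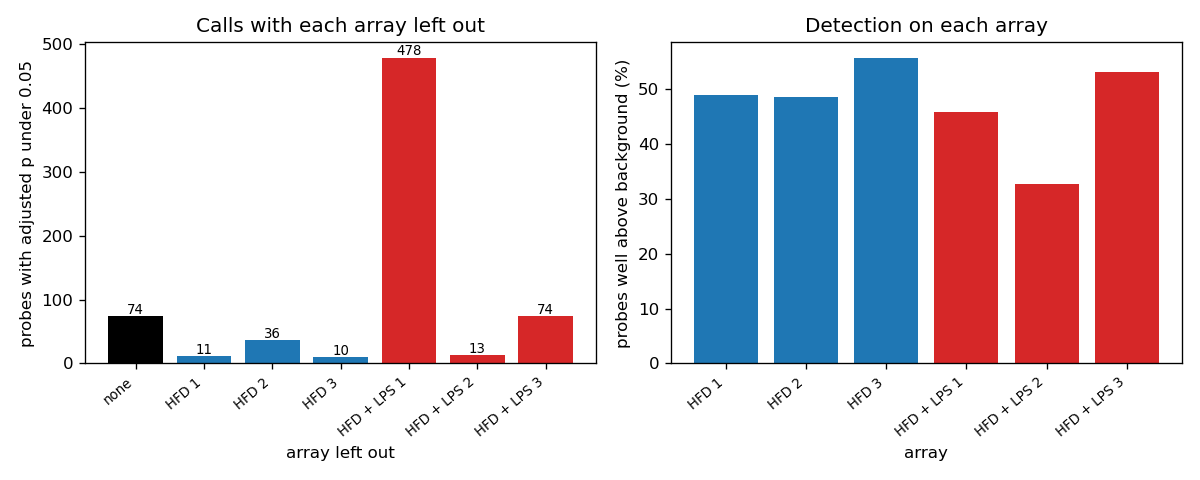
Left, the number of probes with an adjusted p under 0.05 (y axis) with no array left out or with one HFD or HFD + LPS array left out (x axis); right, the share of probes well above background in percent (y axis) on each of these arrays (x axis). The count runs from 10 without HFD replicate 3 to 478 without HFD + LPS replicate 1, and HFD + LPS replicate 2 has the lowest share, 32.6%.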

How the data were processed

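RNA depleted of rRNA was labelled by random priming and hybridised to 1-colour Agilent arrays. The spots were read with Agilent Feature Extraction 11.0.1.1, per the labels, and the authors deposited for each one an intensity after background subtraction, which was not normalised between arrays. A second file that the authors deposited holds log2 values from GeneSpring GX. Its column medians were 3.74, its columns share a distribution, the normalisation method is not named in the sources used here, and it covers 60641 probes but none of the probes with an accession, so it was used only for counts over all probes.

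Outlier spots, control spots and 132 probes for design controls were left out. Log2 values of repeated spots were averaged, and each array was scaled by subtracting its 75th percentile. Of 60691 probes, 803 lacked a value on at least 1 array and were not tested. A probe was tested if well above background on at least 3 of 6 arrays. limma 3.58.1 (lmFit and eBayes) in R 4.3.3 was run on the 9 arrays with no term other than group, and p-values were adjusted over all probes tested with a threshold of 0.05. Exact permutation tests used scipy 1.17.1. Accessions were matched to RefSeq transcripts (GRCm38.p6), and 4 of 50 had no match. The array design names another build, so no probe coordinates are given.

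Every tested gene was counted. Those with no overlap between groups, or detected in 1 group only, were described in full, except 1 gene that enters the counts and is not reported here. The members, lists and roles were chosen with earlier results of these data known. Replicates are separate mice by the labels. Other scalings, filters, blocks, covariates, weights, tests and leaving out each array were run as alternatives. Normexp used the median signal and median background of each spot with an offset of 50. Such an offset makes log2 differences of dim probes smaller by arithmetic.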

Additional observations from a re-analysis of the deposited data

How the results depend on the processing

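The numbers of probes past the threshold, 74 in all, were 42 with quantile normalisation, 116 (62 higher) with the 75th percentile over probes well above background on all 9 arrays, 166 (137 higher) with the array median, 96 (67 higher) with the authors' log2 values, 254 (211 higher) with normexp, 0 without a filter on dim probes (6218 at an unadjusted limma p under 0.05), 358 with detection on all 6 arrays, 15 (13 higher) in a fit to 6 arrays, 48 with the replicate number as a block, 41 with slide as a block, 58 with row as a block, 17 (15 higher) with brightness as a covariate and 124 with array weights. The methods' t-test gave 3842 before adjustment and 1 after it. Leaving out one array gave 10 to 478. The array median scaling moved the median difference of all probes from -0.05 to 0.11, and the percentile over detected probes moved it to -0.15. The named genes past the threshold, 0 in all, were 1 with normexp (Gpi1), 1 with detection on all 6 arrays (Carhsp1), 1 with the replicate block (Actb), 10 with the unadjusted t-test and 0 to 1 with one array left out. Gained probes were 252 and lost probes 1472 where 2 of 3 arrays sufficed, and 24 to 169 and 447 to 1948 with one array left out. The cause of these shifts was not tested.

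Deviations of same-numbered HFD and HFD + LPS arrays from their group means correlated at -0.03, -0.19 and -0.01 over all probes tested. These values show no pairing of mice by replicate number but cannot exclude one.

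Under other settings, 15 values of single genes had a p under 0.05, and 10 of these came from the t-test without adjustment. Another 45 values, in 12 genes with small differences, turned direction. Several settings (blocks by replicate or row, filters, t-tests and control arrays left out) leave the difference itself as it was. With quantile normalisation the genes that turned were H2-Q7 (-0.098), Cpt1a (-0.059), Pex11a (-0.031) and Lhfp (-0.067). With the percentile over detected probes they were H2-Q7 (-0.082), Olfr1307 (-0.10), Cpt1a (-0.036), Pex11a (-0.024), Trp53rka (-0.021) and Lhfp (-0.056). With the array median they were Atg3 (0.00069), Apoe (0.011) and Rps4l (0.027), and with normexp Rps4l (0.00032) and Trp53rka (-0.040). With slide as a block, which sets aside HFD + LPS replicate 3 and is no separate check, they were Apoe (0.18), H2-Q7 (-0.0060) and Olfr1307 (-0.79). With brightness as a covariate they were Apoe (0.041), Anxa8 (-0.023), Olfr1307 (-0.85), Rps4l (0.13), Pex11a (-0.053), Trp53rka (-0.013), Gamt (-0.12) and Lhfp (-0.0050), and with array weights Olfr1307 (-0.38) and Pex11a (-0.16). With one array left out the ranges were -0.38 to 0.18 for Apoe, -0.45 to 0.19 for Atg3, -0.10 to 0.29 for Cpt1a, -0.00055 to 0.28 for Gamt, -0.12 to 0.20 for H2-Q7, -0.012 to 0.13 for Lhfp, -0.24 to 0.51 for Olfr1307, -0.068 to 0.29 for Pex11a, -0.61 to 0.18 for Ppara, -0.40 to 0.17 for Rps4l and -0.050 to 0.18 for Trp53rka. Olfr1307 was tested in only 6 of these 9 runs. The run without HFD + LPS replicate 3 was not among them, and the slide block, which sets that array aside, gave -0.79. With 3 arrays in a group, the spread between mice and the dimness of probes near background limit what can be tested. Of the 40 named genes, the difference moved by more than 1.5 times or turned for 30 with normexp background correction and for 29 when at least 1 of the arrays was left out.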

Other observations

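Among the probes that carry the manufacturer's identifier, calls are given by identifier class as counts, and the classes were not tested against each other. Of 13127 tested probes with ASMM10AP identifiers, 41 were called higher and 11 lower after LPS (0.396%). Long non-coding RNA identifiers gave 9 higher and 9 lower of 13174 (0.137%), and ASMM10P identifiers gave 4 higher and 0 lower of 3185 (0.126%). ASMM10UP identifiers gave 0 of 170 in the same limma fit, and 35 at an unadjusted p under 0.05.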
